A study of Mus musculus with 9 samples.

Results

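A set of 9 named genes of the TNF receptor signaling complexes were followed in mouse mast cells stimulated through IgE, with and without luteolin. They encode A20 (Tnfaip3), its adaptor ABIN1 (Tnip1), the deubiquitinase CYLD (Cyld), the inhibitor of apoptosis proteins cIAP1, cIAP2 and XIAP (Birc2, Birc3 and Xiap), the kinase RIPK1 (Ripk1), caspase-8 (Casp8) and its relative cFLIP (Cflar). The genes were chosen by name, as the rows of the deposited raw counts whose Ensembl identifiers carry these symbols, and all 9 were present among 47643 genes. All 9 were also among the 11560 genes tested, which had a median above 1 CPM (counts scaled to a common library size) over the libraries. RNA was sequenced in 9 libraries of bone marrow-derived mast cells (BMMCs), primary cells from C57BL/6 mice grown in medium containing WEHI-3-conditioned medium, a source of IL-3. Control cells were untreated (n = 3), IgE+BSA cells had been loaded with IgE against DNP and then stimulated with the antigen DNP-BSA (n = 3), and IgE+BSA+Luteolin cells received luteolin, a plant flavone, in addition (n = 3). The labels give luteolin at 10 µM for 24 h. Whether it preceded the antigen, the antigen dose for these libraries, the time from antigen to RNA and the age of the mice are not given clearly in the sources used here. The sources do not say whether replicates came from separate cultures or mice, so the p-values measure only the spread between these libraries.

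A20 is an ubiquitin-editing enzyme that limits signaling from TNF and related receptors to NF-κB, and its gene is itself a classic NF-κB target. When TNF binds its receptor, cIAP1 and cIAP2 attach ubiquitin chains to RIPK1, on which the kinases of the NF-κB pathway assemble, while CYLD and A20 act against these chains. If the chains are lost, RIPK1 can join FADD and caspase-8 in a death-inducing complex, where cFLIP holds caspase-8 in check and XIAP blocks the caspases further down. Mast cells make TNF themselves after cross-linking of their IgE receptor, and in these libraries Tnf was at 10.6 to 21.8 CPM in Control, 711 to 801 CPM in IgE+BSA and 37.6 to 46.5 CPM in IgE+BSA+Luteolin.

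The libraries held 9515004 to 24605689 counts, and 3 counts corresponded to 0.122 to 0.315 CPM. All CPM values are scaled by trimmed mean of M-values (TMM) factors, and values are the mean ± SD of 3 libraries. The mast cell markers Kit and Fcer1a, which encode the stem cell factor receptor and the IgE receptor alpha chain, were at 1749 to 2481 and 4367 to 6879 CPM over the 9 libraries. The 4 T cell markers summed to at most 0.588 CPM and the 3 B cell markers to at most 0.775 CPM in any library, and of these 7 genes Cd3e, Cd8a and Ms4a1 were at 0 in every library. The 6 macrophage markers summed to 211 to 215 CPM in Control, 237.5 to 260.0 CPM in IgE+BSA and 249.7 to 270.6 CPM with luteolin, so that the Control libraries lay below the other 6. Of these sums Adgre1 made up 203 to 259 CPM, while C1qa was at 0 in all but 1 library, where it was at 0.0405 CPM. The Control libraries were not alike. The 5 neutrophil markers examined summed to 238 CPM in Control replicate 1, to 170 to 188 CPM in IgE+BSA and to 198 to 230 CPM in IgE+BSA+Luteolin, but only to 5.32 CPM in the lowest Control library. S100a9, one of them, was at 105 CPM in Control replicate 1, at 0.969 and 0.907 CPM in Control replicates 2 and 3, and at 71.0 to 99.1 CPM in the other 6 libraries. The basophil protease gene Mcpt8 was likewise at 432 CPM in Control replicate 1 and at 21.8 and 18.7 CPM in Control replicates 2 and 3, against 292 to 368 CPM in the other 6. Of the other 2 basophil markers, Cd200r3 was at 687.5 CPM in Control replicate 1, at 1045 and 1023 CPM in Control replicates 2 and 3, and at 616 to 753 CPM in the other 6. Prss34 was at 759, 651 and 611 CPM in Control, highest in replicate 1, and at 513 to 661 CPM in the other 6, and the 3 markers summed to 1652 to 1878 CPM in Control. Mast cell genes set this library apart as well: in Control replicates 1, 2 and 3, the chymase gene Cma1 was at 10120, 4049 and 3555 CPM, the tryptase gene Tpsb2 at 26590, 15670 and 16530 CPM, Cpa3 at 32790, 23070 and 23260 CPM, and Kit at 1749, 2306 and 2481 CPM. The 8 mast cell markers examined summed to 54110 to 81610 CPM in Control. For the neutrophil markers, Mcpt8 and Cd200r3, Control replicate 1 resembled the stimulated libraries and not the other two Control libraries. The part of these cells or their RNA in the results was not tested, and fewer cells of a type and less RNA per cell cannot be told apart in bulk libraries. Comparisons of the 9 genes with Control are given below also without Control replicate 1, and with Control replicate 1 as the only Control library. The comparison of IgE+BSA+Luteolin with IgE+BSA does not use the Control libraries.

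IgE+BSA raised Tnfaip3 and no other gene of the 9 past the threshold, an adjusted p under 0.05 (quasi-likelihood test of edgeR, adjusted over the 11560 genes). Tnfaip3 was 3.23-fold higher in IgE+BSA than in Control. Of all genes tested, 2.25% were called higher and 1.02% lower in this comparison. On simulated counts with genes changed by about 1 on the log2 scale, this comparison recovered 50% of them. Luteolin against Control recovered 52.5%, and luteolin against IgE+BSA 91.5%. A gene not called against Control may therefore have changed. With luteolin, 5 of the 9 genes were lower than in IgE+BSA (Tnfaip3, Birc2, Birc3, Cflar and Ripk1), 1 was higher (Tnip1) and 3 did not pass the test (Cyld, Xiap and Casp8). In that comparison 21.9% of all genes tested were called lower and 18.1% higher. The median log2 fold change of the 9 genes was -0.20, beside 0.02 over all genes tested. The marker sums moved with this comparison too: the 8 mast cell markers summed to 57240 to 64100 CPM in IgE+BSA and 68840 to 79820 CPM with luteolin, though not all in 1 direction (Cpa3 was at 23040 to 25530 and then 28400 to 33660 CPM, Hdc at 716 to 966 and then 360 to 390 CPM, and Kit at 2138 to 2166 and then 1963 to 2021 CPM), and the 5 neutrophil markers to the values given above. The 3 basophil markers summed to 1446 to 1504 CPM in IgE+BSA and 1610 to 1754 CPM with luteolin, with no overlap for Cd200r3 (616 to 655 and then 701 to 753 CPM) or Prss34 (513 to 558 and then 581 to 661 CPM). The part of these markers in the result was not tested. Against Control, Tnfaip3 was the only gene of the 9 called in IgE+BSA+Luteolin cells with all libraries, and it was 2.495-fold higher. In that comparison 0.285% of all genes were called higher and 2.75% lower. The study displayed Tnfaip3, Birc3 and Cflar among genes it chose from these same libraries, so their direction is not independent evidence.

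**Figure D1:**
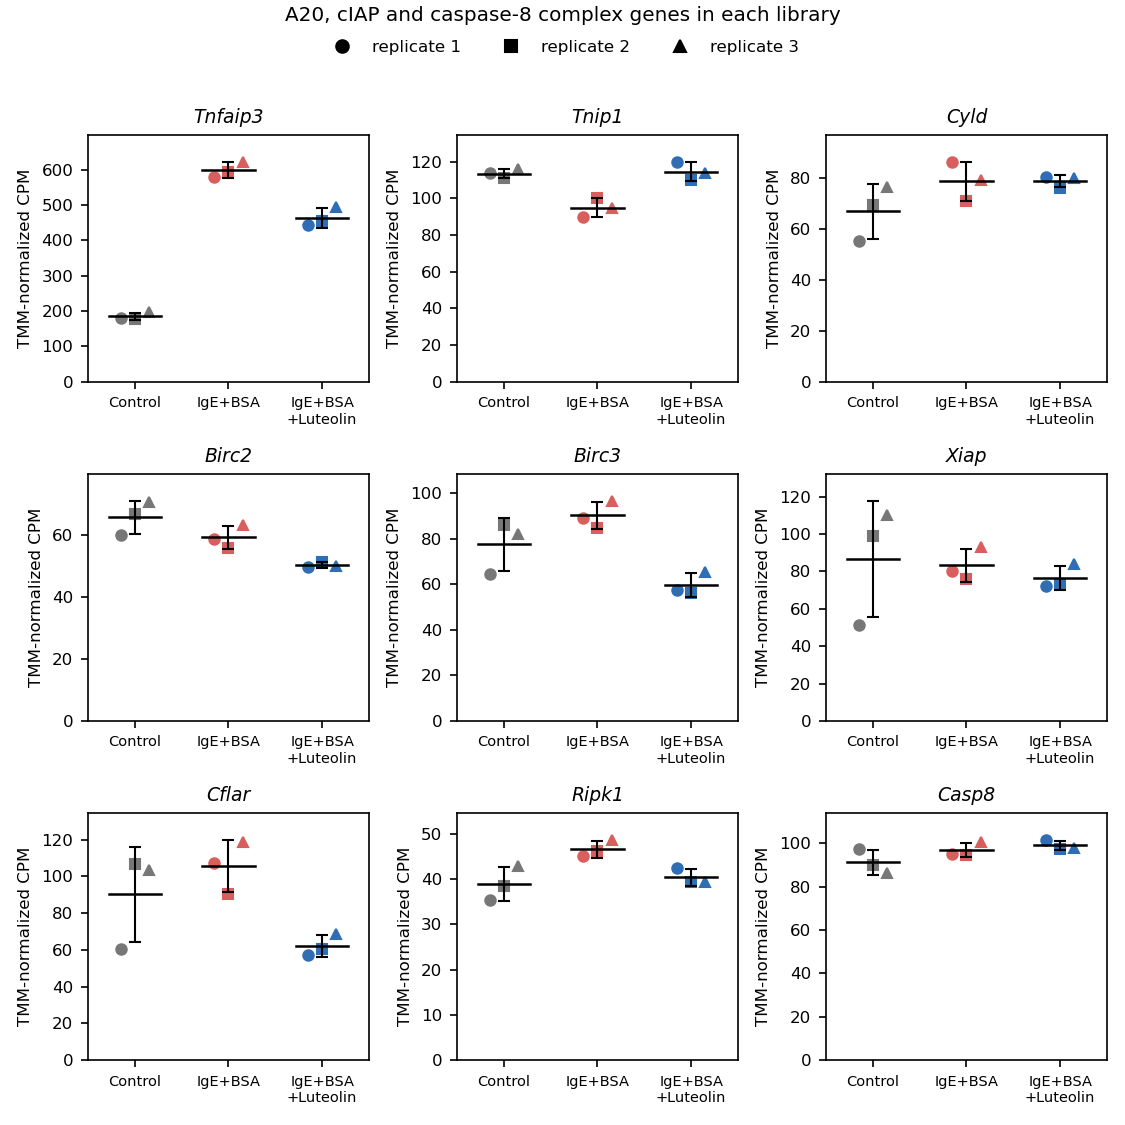
TMM-normalized CPM (linear vertical axes from 0) of the 9 genes in each of the 9 libraries, by group, with marker shapes for the replicate number and black bars for the mean and SD (n = 3). Tnfaip3 lay between 578 and 623 CPM in IgE+BSA, above all Control libraries, and Control replicate 1 was the lowest Control library for Cyld, Birc2, Birc3, Xiap, Cflar and Ripk1.

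Tnfaip3 lies on the reverse strand of chr10:19000910-19015657 (GRCm38). It was at 181, 178 and 196 CPM in Control replicates 1, 2 and 3. In IgE+BSA it was at 578, 593 and 623 CPM, and with luteolin at 442, 454 and 494 CPM. The 3 groups did not overlap, and all IgE+BSA+Luteolin libraries lay between the Control and the IgE+BSA libraries. The log2 fold change from Control to IgE+BSA was 1.69 ± 0.10 (SE; edgeR adjusted p = 0.000258). From IgE+BSA to IgE+BSA+Luteolin it was -0.365 ± 0.057 (edgeR adjusted p = 0.0001), a level 1.29-fold lower. IgE+BSA+Luteolin cells remained above Control by 1.32 ± 0.10 on the log2 scale (edgeR adjusted p = 0.00383), a call that was lost without IgE+BSA+Luteolin replicate 1 or 2 (edgeR adjusted p = 0.0588 and 0.0667, with log2 fold changes of 1.35 and 1.33). The coefficient of variation between the Control libraries was 5.32%. The log2 fold change of Tnfaip3 from Control to IgE+BSA was 1.71 with Control replicate 1 as the only Control library (edgeR adjusted p = 5.63e-08) and 1.62 without that library, called in both. For luteolin against Control these values were 1.36 and 1.29, also called in both.

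Of the 260 genes raised in IgE+BSA over Control, 242 were called lower with luteolin and 18 were not. In 31 of the 260 the log2 change with luteolin was less negative than that of Tnfaip3, or positive, and 13 of these 31 were among the genes called lower. These counts share the IgE+BSA libraries and the choice of raised genes, and are a description. The set of raised genes also depends on single libraries: it held 2616 genes without Control replicate 1, and 87 to 124 with any other library left out. Tnf itself, with a log2 change of -4.18 ± 0.08 with luteolin (edgeR adjusted p = 3.72e-16), was 18.1-fold lower.

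The promoter of Tnfaip3 is shown because the 9 genes differ in whether a match to the NF-κB binding consensus lies next to their start site. In the RefSeq promoter windows of GRCm38.p6, 250 bases before and 50 after each start site, the kappa B consensus was found on either strand in 4.51% of 32851 windows. The AP-1 motif TGANTCA was found in 7.81% and the CRE motif TGACGTCA in 1.79%. All 9 genes had at least 1 of 14 windows. The kappa B consensus was found for Tnfaip3, Tnip1 and Cyld, the AP-1 motif for Tnfaip3 and the CRE for Birc2, and no match to any of them was found in the windows of the other 5 genes. The sequences below end at the start site, and those of Birc2 and Birc3 further down end at the first annotated exon. That of Tnfaip3 lies within its annotated gene and begins 137 bases before the start site, where an annotated exon ends. Motif matches are in capitals, 5′ to 3′ on the strand of the gene, at chr10:19015411-19015547 (reverse), chr11:54962941-54963190 (reverse) and chr8:88696778-88697027 (forward).
Tnfaip3: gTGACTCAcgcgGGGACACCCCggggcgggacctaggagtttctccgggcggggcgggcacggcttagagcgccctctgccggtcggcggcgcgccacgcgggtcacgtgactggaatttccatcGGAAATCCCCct
Tnip1: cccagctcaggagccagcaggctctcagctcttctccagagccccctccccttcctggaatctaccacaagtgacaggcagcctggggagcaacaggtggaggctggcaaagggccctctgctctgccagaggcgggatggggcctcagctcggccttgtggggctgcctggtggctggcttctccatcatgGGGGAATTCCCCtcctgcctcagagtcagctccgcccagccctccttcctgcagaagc
Cyld: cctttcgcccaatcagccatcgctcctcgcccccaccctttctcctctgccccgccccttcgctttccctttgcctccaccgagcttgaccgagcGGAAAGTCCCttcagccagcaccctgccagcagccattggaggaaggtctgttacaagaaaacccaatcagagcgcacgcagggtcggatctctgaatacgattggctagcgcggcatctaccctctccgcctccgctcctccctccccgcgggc
In the Tnfaip3 sequence, the AP-1 match began 136 bases before the start site, and the kappa B matches GGGACACCCC and GGAAATCCCC began 125 and 12 bases before it. The capitals in the Tnip1 sequence are 1 palindromic stretch holding 3 overlapping kappa B matches, and those in Cyld are the match GGAAAGTCCC. These letters are a description and not evidence of binding. The genes that hold a kappa B match did not move together: Tnfaip3 rose with IgE+BSA, while the mean level of Tnip1 was lower and neither Tnip1 nor Cyld passed the test.

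Tnip1 (chr11:54910785-54962917, reverse strand) encodes ABIN1, which binds ubiquitin chains and brings A20 to its substrates. Its level was 114, 111 and 116 CPM in Control, 90.0, 100 and 94.7 CPM in IgE+BSA, and 120, 110 and 114 CPM with luteolin. The IgE+BSA libraries were the lowest 3 of the 9. The change from Control to IgE+BSA was -0.26 ± 0.10 on the log2 scale and did not pass the test (edgeR adjusted p = 0.195), although the libraries did not overlap, as was the case for 28.7% of all genes tested and for 3 of the 9 genes. Tnip1 rose with luteolin over IgE+BSA by 0.27 ± 0.06 on the log2 scale (edgeR adjusted p = 0.0022), a call lost with all 9 libraries in 1 fit, where the fold change was also 0.27 (edgeR adjusted p = 0.0678). Against Control the IgE+BSA+Luteolin level differed by 0.01 on the log2 scale, with a 95% interval from -0.21 to 0.23, and it was not called in either reading of the Control group. The lower level in IgE+BSA passed the test both without Control replicate 1 (log2 fold change -0.31) and with it as the only Control library (-0.28, edgeR adjusted p = 0.022). It was also called lower by DESeq2 (-0.30, adjusted p = 0.0317). The comparisons of IgE+BSA with Control and of luteolin with IgE+BSA share the 3 IgE+BSA libraries, so the lower and the higher value of Tnip1 are not independent of each other.

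Cyld (chr8:88697028-88751945, forward strand) encodes a deubiquitinase that removes Lys63-linked and linear chains. It was at 55.1, 69.3 and 76.3 CPM in Control, at 86.3, 70.9 and 79.2 CPM in IgE+BSA, and at 80.6, 76.1 and 80.0 CPM with luteolin. Control replicate 1 was the lowest library, and the groups overlapped. With luteolin its log2 fold change over IgE+BSA was 0.00, with a 95% interval from -0.145 to 0.15, so a change larger than this interval was not seen. Against Control it was not called in IgE+BSA (log2 fold change 0.24, edgeR adjusted p = 0.413) or in IgE+BSA+Luteolin (0.23, edgeR adjusted p = 0.342). With Control replicate 1 as the only Control library these were 0.50 and 0.52 and called, and without it 0.06 and 0.10 and not called.

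Birc2 and Birc3, which encode the ubiquitin ligases cIAP1 and cIAP2, lie side by side on the reverse strand of chromosome 9, at chr9:7818227-7837064 and chr9:7848699-7873186. They are 11634 bases apart with 0 annotated genes between them. Both fell with luteolin, with log2 fold changes of -0.595 for Birc3 and -0.23 for Birc2. Birc3 is a known NF-κB target in many cells, and their promoters are shown for this pair of neighbours, at chr9:7837065-7837307 and chr9:7873187-7873420 (both reverse), with the CRE match in capitals.
Birc2: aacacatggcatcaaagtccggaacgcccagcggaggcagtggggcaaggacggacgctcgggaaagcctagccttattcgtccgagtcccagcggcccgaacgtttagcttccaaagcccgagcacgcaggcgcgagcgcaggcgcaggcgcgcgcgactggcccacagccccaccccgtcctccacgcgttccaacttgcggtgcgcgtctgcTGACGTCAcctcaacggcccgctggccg
Birc3: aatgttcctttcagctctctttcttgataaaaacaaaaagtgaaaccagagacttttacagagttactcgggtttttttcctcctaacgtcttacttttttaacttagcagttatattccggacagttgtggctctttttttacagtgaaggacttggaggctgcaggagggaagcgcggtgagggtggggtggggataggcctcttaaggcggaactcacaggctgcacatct
The CRE match of Birc2 began 35 bases before its start site. The Birc3 window held none of these motifs, which says only that the letters are not in this window.

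Birc3 was at 64.4, 86.0 and 82.2 CPM in Control and at 89.3, 84.7 and 96.8 CPM in IgE+BSA. With luteolin it was at 57.5, 56.0 and 65.5 CPM, below all IgE+BSA libraries. The fall was -0.595 ± 0.072 on the log2 scale (edgeR adjusted p = 6.38e-06), or 1.51-fold. IgE+BSA exceeded Control by 0.22 ± 0.13 on the log2 scale, which did not pass the test (edgeR adjusted p = 0.399), and was 0.06 and not called without Control replicate 1 and 0.47 and called with it alone. Against Control, the luteolin level was lower by -0.38 ± 0.14 on the log2 scale and did not pass it either (edgeR adjusted p = 0.181). This value depended on the Control libraries, since it was -0.50 and called without Control replicate 1, and -0.11 and not called with Control replicate 1 alone.

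Birc2 was at 60.0, 66.6 and 70.5 CPM in Control, at 58.8, 55.6 and 63.1 CPM in IgE+BSA, and at 49.5, 51.3 and 49.8 CPM with luteolin. All 3 luteolin libraries were below the other 6. The fall from IgE+BSA was -0.23 ± 0.07 on the log2 scale (edgeR adjusted p = 0.0122), and it was no longer called in 4 alternatives. It was smaller with upper-quartile factors (-0.16), with library size alone (-0.12) and without IgE+BSA replicate 3 (-0.19), and -0.24 with all 9 libraries in 1 fit (adjusted p = 0.155). Against Control the luteolin level was lower by -0.39 ± 0.11 on the log2 scale with no overlap of the libraries, which 2 of the 9 genes and 28.5% of all genes showed, but did not pass the test (edgeR adjusted p = 0.0982). At the same fold it was called lower by DESeq2 (adjusted p = 0.0118) and by edgeR with all 9 libraries in 1 fit (adjusted p = 0.0293). It was -0.46 and called without Control replicate 1, and -0.26 and not called with it alone. IgE+BSA against Control was -0.15 with all libraries (edgeR adjusted p = 0.486), -0.26 and called without Control replicate 1, and -0.04 with it alone.

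Xiap (chrX:42059679-42109656, forward strand) encodes the IAP that inhibits caspases directly. It was at 51.4, 98.9 and 110 CPM in Control, at 80.1, 76.1 and 93.2 CPM in IgE+BSA, and at 71.9, 73.3 and 83.8 CPM with luteolin. The 3 groups overlapped, and Control replicate 1 was the lowest of the 9 libraries while Control replicates 2 and 3 were the highest. Luteolin against IgE+BSA gave -0.12 on the log2 scale (95% interval -0.29 to 0.05, edgeR adjusted p = 0.235). This value depended on single libraries: it was -0.03 without IgE+BSA replicate 3, and -0.19 and called lower without IgE+BSA+Luteolin replicate 3 (edgeR adjusted p = 0.0479). The comparison of IgE+BSA with Control, -0.06 on the log2 scale with all libraries, had opposite signs in the 2 readings of the Control group: it was -0.38 without Control replicate 1 and 0.675 with Control replicate 1 as the only Control library, and both were called. IgE+BSA+Luteolin against Control likewise went from -0.19 with all libraries to -0.47 and 0.57, both called. No direction against Control is therefore given for Xiap.

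Cflar (chr1:58711508-58758884, forward strand) showed the largest fall of the 9 genes with luteolin. It was at 60.4, 107 and 104 CPM in Control and at 107, 90.5 and 119 CPM in IgE+BSA. With luteolin it was at 57.0, 60.7 and 68.8 CPM, below all IgE+BSA libraries. The log2 fold change was -0.76 ± 0.09 (edgeR adjusted p = 3.8e-06), or 1.70-fold lower. Control replicate 1 lay within the range of the luteolin libraries and the other two Control libraries within that of IgE+BSA. IgE+BSA against Control was accordingly 0.23 ± 0.22 on the log2 scale with all libraries (edgeR adjusted p = 0.611), -0.04 without Control replicate 1, and 0.79 and called with Control replicate 1 alone. Luteolin against Control was -0.54 ± 0.22 on the log2 scale (edgeR adjusted p = 0.206), -0.77 and called without Control replicate 1, and 0.04 with it alone. The counts do not separate the long and short isoforms of cFLIP, which differ in how they act on caspase-8, and 3.99% of the stretches of 100 bases in its exons also occur in other genes.

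Casp8 (chr1:58795374-58847503, forward strand), which encodes the initiator caspase of the death receptor complexes, was the gene of the 9 whose largest log2 fold change over the 3 comparisons, 0.115, was the smallest. It was at 97.5, 90.0 and 86.4 CPM in Control, at 95.3, 94.9 and 101 CPM in IgE+BSA, and at 102, 97.4 and 98.1 CPM with luteolin. The groups overlapped in all 3 comparisons. The log2 fold change with luteolin over IgE+BSA was 0.04, with a 95% interval from -0.085 to 0.155. Over Control it was 0.085 in IgE+BSA (95% interval -0.15 to 0.32) and 0.115 with luteolin (95% interval -0.11 to 0.34). Neither was called without Control replicate 1 (0.09 and 0.16) or with it alone (-0.03 and 0.02).

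Ripk1 (chr13:34002363-34037147, forward strand) encodes the kinase on which survival and death signals diverge. It was at 35.4, 38.6 and 42.9 CPM in Control, at 45.0, 46.1 and 48.7 CPM in IgE+BSA, and at 42.5, 39.3 and 39.3 CPM with luteolin. The 3 IgE+BSA libraries were the highest of the 9. The difference from Control, 0.26 ± 0.11 on the log2 scale, did not pass the test (edgeR adjusted p = 0.255), and it was 0.14 and not called without Control replicate 1, and 0.38 and called with it as the only Control library. Luteolin against Control was 0.05 (edgeR adjusted p = 0.819), and -0.03 and 0.19 in these 2 readings, not called in either. The fall with luteolin was -0.205 ± 0.072 on the log2 scale (edgeR adjusted p = 0.0313) and was no longer called in 8 of the 14 alternatives tried, among them those without IgE+BSA replicate 1 or 3 or without IgE+BSA+Luteolin replicate 2 or 3. Exons of Ripk1 overlap those of Serpinb6a on the opposite strand over 241 bases and those of the pseudogene Gm17084 on the same strand over 511 bases, with which it shares 4.94% of its stretches of 100 bases, and the strand setting of the counting is not given in the sources used here.

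**Figure D2:**
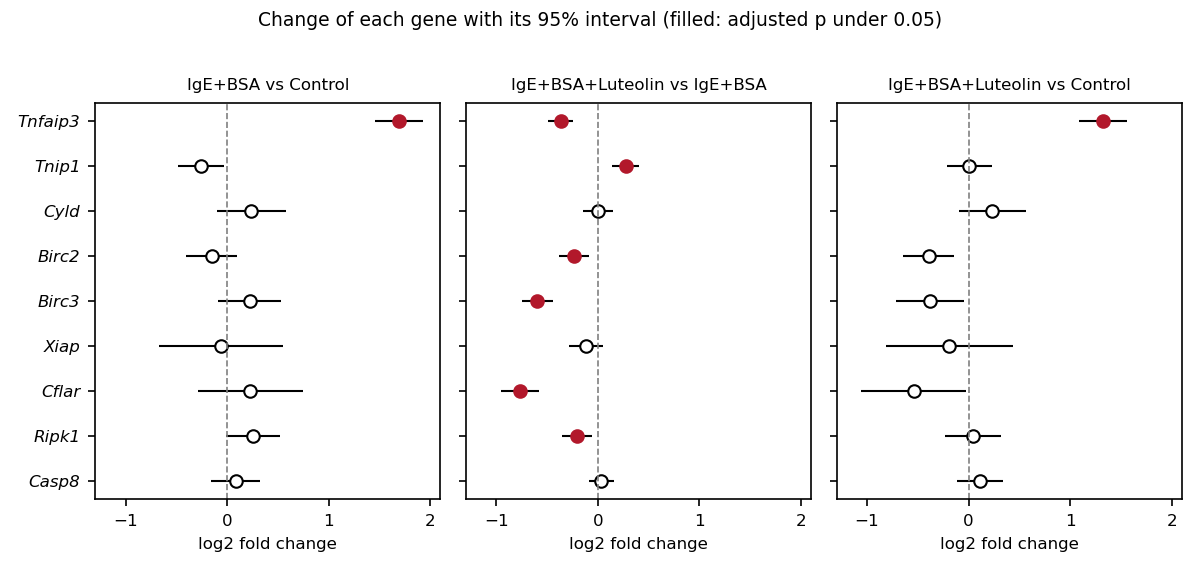
Log2 fold change (horizontal axes) of each gene in the 3 comparisons from edgeR's fit on the 6 libraries of each, with lines for the 95% interval and filled points for an adjusted p under 0.05. Tnfaip3 is the only filled point in both comparisons with Control, and the intervals of Xiap and Cflar are the widest there. In the middle panel 5 genes are filled to the left of 0 and Tnip1 to the right.

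The comparison of IgE+BSA with Control called 1 of the 9 genes with all libraries, 4 without Control replicate 1 (Tnfaip3 higher, and Tnip1, Birc2 and Xiap lower), and 7 with Control replicate 1 alone (Tnip1 lower, and Tnfaip3, Cyld, Birc3, Xiap, Cflar and Ripk1 higher). In all genes tested, these 2 readings called 22.6% and 23.1% higher, and 22.4% and 19.2% lower. The comparison of IgE+BSA+Luteolin with Control called 5 of the 9 without Control replicate 1 (Tnfaip3 higher, and Birc2, Birc3, Xiap and Cflar lower), beside 29.9% of all genes higher and 30.1% lower. With Control replicate 1 alone it called 3 of the 9 (Tnfaip3, Cyld and Xiap, all higher), beside 11.6% of all genes higher and 9.55% lower. A lone Control library is assumed to vary like the libraries of the other group, and the 2 readings share the libraries of that group. How many of all genes tested were called alike in both was not counted. Tnfaip3 and Tnip1 were the only genes of the 9 called in the same direction in both readings of IgE+BSA against Control, and Tnfaip3 the only one in both readings of IgE+BSA+Luteolin against Control.

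For levels between genes, CPM was divided by the length of the annotated exons in kilobases. In Control, Tnip1 (32.1 ± 0.7 CPM per kb) and Casp8 (31.6 ± 2.0 CPM per kb) were the highest and their libraries overlapped, followed by Tnfaip3 at 25.6 ± 1.4 CPM per kb. Birc3 and Birc2 (15.5 ± 2.3 and 14.4 ± 1.2 CPM per kb) overlapped each other, and Xiap, Cflar, Cyld and Ripk1 (9.16 down to 4.67 CPM per kb) each overlapped the next in order. In IgE+BSA, Tnfaip3 moved from the third to the first place at 82.8 ± 3.2 CPM per kb, above Casp8 at 33.5 ± 1.1 and Tnip1 at 26.8 ± 1.4 CPM per kb, with no overlap between these neighbours. With luteolin Tnfaip3 stayed first at 64.1 ± 3.8 CPM per kb, Casp8 and Tnip1 overlapped (34.3 ± 0.8 and 32.3 ± 1.5 CPM per kb), and Cflar stood below Cyld at 4.91 ± 0.48 CPM per kb, overlapping Ripk1 at 4.84 ± 0.22. Union exon length counts all annotated isoforms, so a gene with long rarely used exons is set too low on this scale.

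The 2 pairs of neighbouring genes were also compared as ratios within each library, which do not depend on the scaling of the libraries. The Birc3 to Birc2 ratio of CPM was 1.07, 1.29 and 1.17 in Control, 1.52, 1.52 and 1.53 in IgE+BSA, and 1.16, 1.09 and 1.32 with luteolin. All IgE+BSA libraries lay above the other 6, and the ratio varied least in that group. The log2 difference was 0.38 ± 0.08 (SE) from Control to IgE+BSA and -0.36 ± 0.08 from IgE+BSA to luteolin, each at p = 0.1 by a two-sided exact permutation test, the smallest p that 3 against 3 libraries allow. Between luteolin and Control it was 0.01 ± 0.11 (exact permutation p = 0.8). Without Control replicate 1 the differences from Control were 0.31 for IgE+BSA and -0.05 for luteolin, and with it as the only Control library 0.51 and 0.14. Birc2 and Birc3 share 0.33% and 1.76% of their stretches of 100 bases with each other or the pseudogene Gm7019. The handling of reads that match both is not given in the sources used here.

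Cflar lies 36489 bases before Casp8 on chromosome 1, with 1 annotated pseudogene (Gm3841) between them. The Cflar to Casp8 ratio of CPM was 0.620, 1.18 and 1.199 in Control, 1.13, 0.954 and 1.18 in IgE+BSA, and 0.561, 0.623 and 0.701 with luteolin. The luteolin libraries lay below all IgE+BSA libraries, and Control replicate 1 lay among the luteolin libraries. The log2 difference from IgE+BSA to luteolin was -0.79 ± 0.13 (exact permutation p = 0.1, the smallest possible). For IgE+BSA against Control it was 0.18 ± 0.33 (exact permutation p = 1.0), and for luteolin against Control -0.62 ± 0.33 (exact permutation p = 0.3). Both rest on the choice of Control libraries: they were -0.14 and -0.93 without Control replicate 1, and 0.805 and 0.01 with it as the only Control library.

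**Figure D3:**
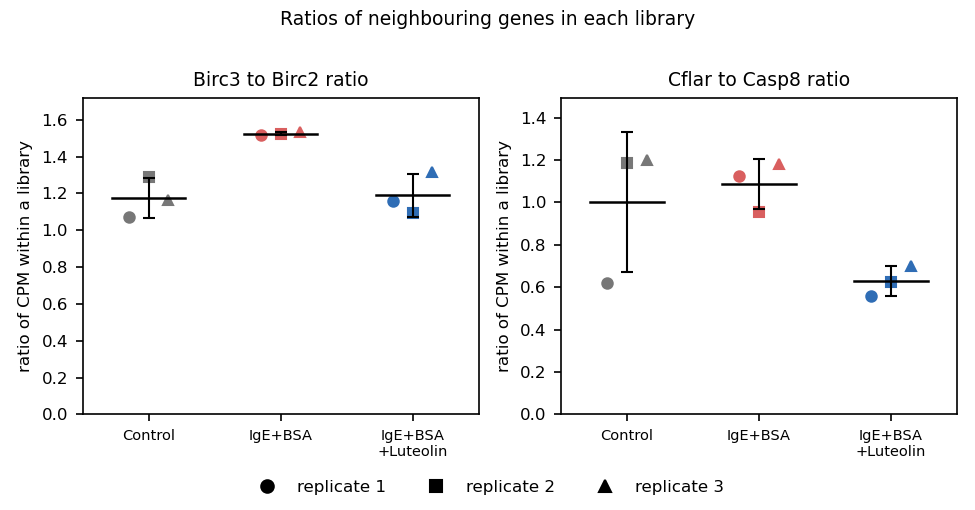
Ratio of CPM within each library (linear vertical axes from 0) for Birc3 to Birc2 and Cflar to Casp8, by group, with marker shapes for the replicate number and black bars for the mean and SD (n = 3). The Birc3 to Birc2 ratio is highest in IgE+BSA, at 1.52 to 1.53, and the Cflar to Casp8 ratio is 0.561 to 0.701 with luteolin, where Control replicate 1 also lies.

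The genes that work around these 9 were read from 6 lists with 43 genes, all of which were tested. In IgE+BSA against Control, 1 of the 43 was called: Tnip3, which encodes ABIN3, a relative of ABIN1, rose from 29.7 ± 5.5 to 63.8 ± 8.8 CPM (log2 fold change 1.11, edgeR adjusted p = 0.0201). With luteolin against IgE+BSA, 10 were lower and 5 higher, and the median of the 43 was 0.00 on the log2 scale. Of all genes tested, 21.9% were lower and 18.1% higher. In this fit the share of the 43 called was therefore near that of all genes for lower calls and below it for higher ones, which did not hold in every setting. The counts of the 43 were 6 and 4 without IgE+BSA+Luteolin replicate 1, 8 and 2 without IgE+BSA+Luteolin replicate 2, and 7 and 3 without IgE+BSA replicate 1. They were 8 and 6 without IgE+BSA replicate 3, and 5 and 2 with all 9 libraries in 1 fit. Calls over all genes fell too, from 2527 lower and 2097 higher to 2032 and 1210, 2049 and 1237, 2040 and 1329, 2136 and 1452, and 917 and 176. Against Control with all libraries, 1 of the 43 was called with luteolin, Tnip3 at 15.9 ± 1.7 CPM (log2 fold change -0.91, edgeR adjusted p = 0.0433). In both comparisons with Control, 0 of the 43 were called with the replicate number as a block and when Control replicate 2 or 3 or a library of the other group was left out. Without Control replicate 1, 8 of the 43 were lower and 8 higher in IgE+BSA (22.4% and 22.6% of all genes), and 10 were lower and 9 higher with luteolin (30.1% and 29.9%). With Control replicate 1 as the only Control library, 7 were lower and 12 higher in IgE+BSA (19.2% and 23.1%), and 7 were lower and 7 higher with luteolin (9.55% and 11.6%).

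Of the 8 A20 partners and relatives, 2 were lower with luteolin and 0 higher. Tnip3 fell by 2.01 on the log2 scale (edgeR adjusted p = 8.09e-11) and Tax1bp1, which encodes an ubiquitin-binding adaptor of A20, fell by 0.81 from 1606 ± 96 to 914 ± 3 CPM (edgeR adjusted p = 2.84e-09). Of the 5 genes of LUBAC, the enzyme that builds linear ubiquitin chains, and its deubiquitinases, 2 were lower and 1 higher. Spata2, which links CYLD to LUBAC, fell from 27.99 ± 0.6 to 13.9 ± 0.4 CPM (log2 fold change -1.01, edgeR adjusted p = 1.23e-07). Rnf31, the catalytic subunit of LUBAC, fell (-0.34, edgeR adjusted p = 0.00158), while Sharpin, another subunit, rose (0.25, edgeR adjusted p = 0.0202).

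Of the 8 TNF receptors and receptor-proximal adaptors, 3 were lower and 1 higher with luteolin. Tnfrsf1b, which encodes TNF receptor 2, fell from 70.6 ± 3.8 to 55.2 ± 2.6 CPM (log2 fold change -0.35, edgeR adjusted p = 0.000565). Traf5 (-0.41), an adaptor, also fell, as did Traf2 (-0.26), which carries the cIAPs to the receptor. Tradd, the adaptor of TNF receptor 1, rose by 0.38 on the log2 scale (edgeR adjusted p = 0.0095). Of the 8 genes of the TAK1 and IKK complexes only Tab2 was called, lower by -0.23 on the log2 scale.

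Of the 8 caspases and necroptosis genes, 1 was lower and 2 higher with luteolin. Casp9, the initiator caspase of the mitochondrial pathway, rose from 35.8 ± 2.2 to 49.7 ± 1.5 CPM (log2 fold change 0.48, edgeR adjusted p = 8.51e-05), and Bid, a substrate of caspase-8, rose by 0.39 on the log2 scale (edgeR adjusted p = 0.00102). Apaf1, whose protein forms the platform on which caspase-9 is activated, fell by 0.16 on the log2 scale (edgeR adjusted p = 0.0459). Of the 6 other IAPs and IAP antagonists, Birc6 was lower (-0.20) and Birc5, which encodes survivin, a protein needed for cell division, was higher (0.215 on the log2 scale, edgeR adjusted p = 0.0126).

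**Figure D4:**
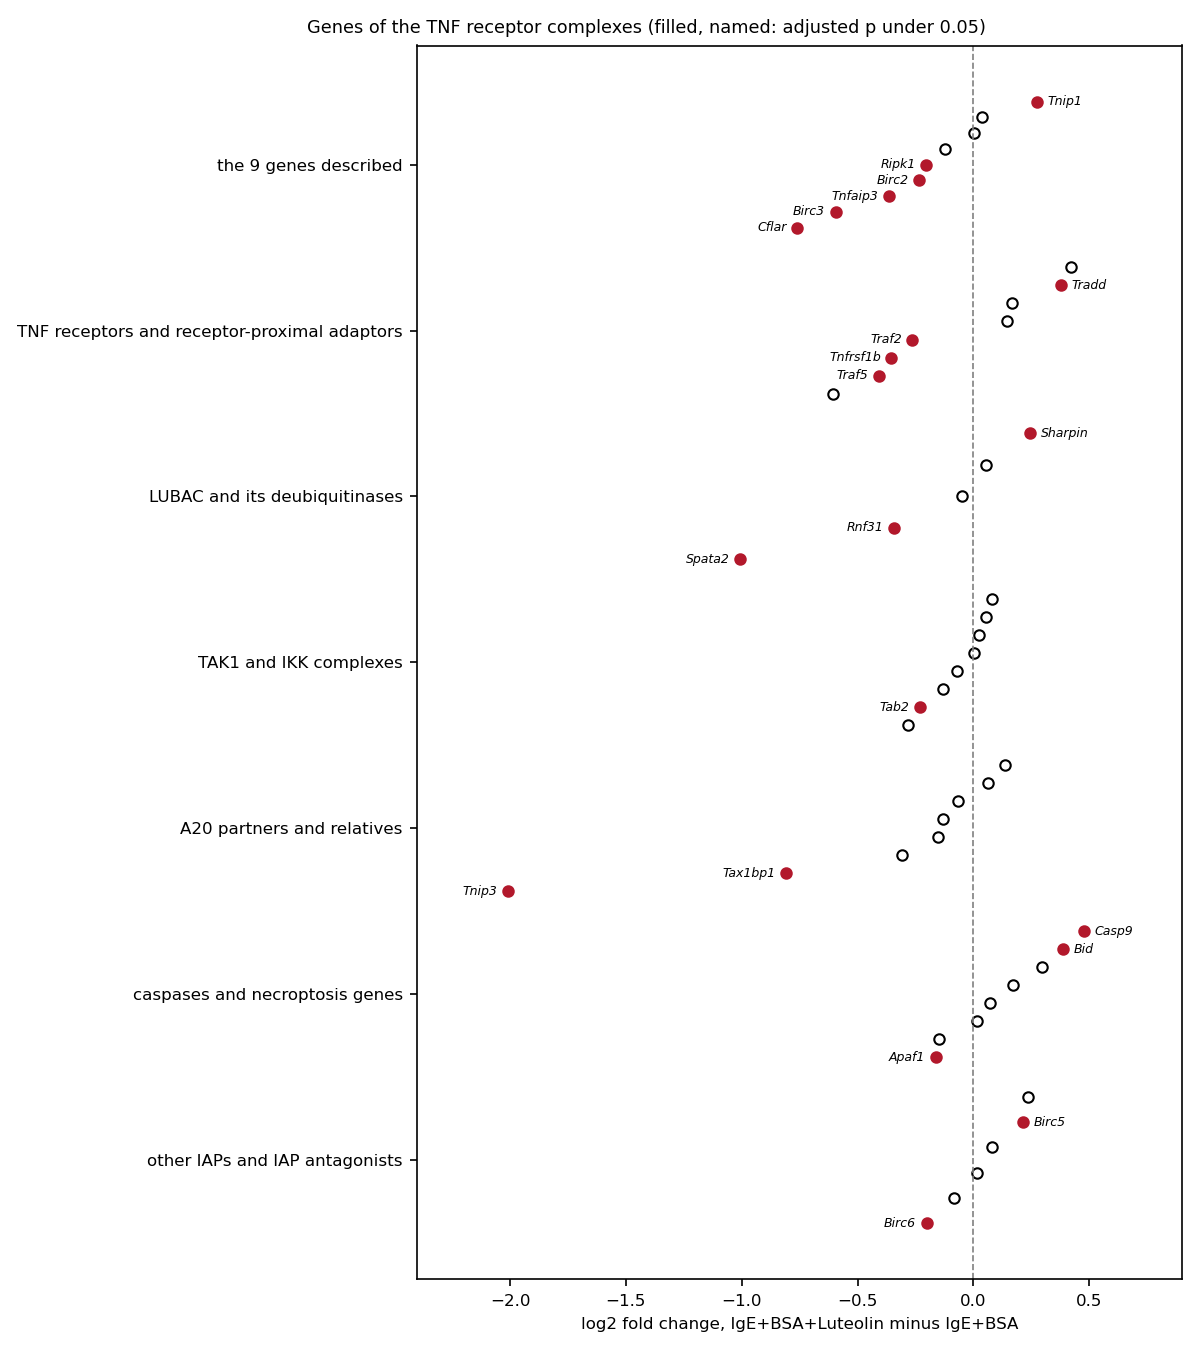
Log2 fold change of IgE+BSA+Luteolin against IgE+BSA (horizontal axis) for the 9 genes and the 43 genes of 6 lists (rows), 1 point per gene, spread vertically for legibility, filled and named where the adjusted p from edgeR was under 0.05. Tnip3 (-2.01) and Spata2 (-1.01) lie farthest to the left, and Casp9 (0.48) is the filled point farthest to the right.

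The balance of lower and higher calls with luteolin depended on the scaling of the libraries. With library size alone the median log2 fold change of all genes tested moved from 0.02 to 0.13, and the lists then held 5 lower and 13 higher genes in place of 10 and 5 (6 and 9 with upper-quartile factors). Of all genes tested, 15.3% were then lower and 33.4% higher. Under the same scaling the 9 genes held 3 lower (Tnfaip3, Cflar and Birc3) and 2 higher (Tnip1 and Casp8). Over all genes tested, 50.3% had libraries that did not overlap between luteolin and IgE+BSA, and 6 of the 9 genes had. In IgE+BSA against Control, library size alone gave 291 lower and 173 higher genes in place of 118 and 260.

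Over the 9 libraries, the tested genes most like each of the 9 in TMM-normalized log2 CPM were found by Pearson's r. For Tnfaip3 they were Abce1 (r = 0.987), Golim4 and Usp1, for Birc3 Helz2 (r = 0.99), Ccnl1 and Sertad2, and for Cflar Eif5 (r = 0.993), Ahr and Ncoa7. For Birc2 they were Irak2 (r = 0.987), Ing4 and Atg16l2, and for Xiap Trim56 (r = 0.992), Mbnl2 and Mbnl1. For Tnip1, Cyld, Ripk1 and Casp8 the first genes were Brat1 (r = 0.976), Poc5 (r = 0.982), Pdxdc1 (r = 0.974) and Memo1 (r = 0.963). None of the 9 was among the 3 genes most like another of them, although Birc3 and Cflar had r = 0.972 with each other. The 9 points share their libraries and their 3 groups, and the genes were picked as the highest of all tested, so these values are a description.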

How the data were processed

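RNA of mouse BMMCs was measured in 9 libraries of 3 groups, assigned by their labels. The authors made stranded libraries of mRNA, cleaned reads in HTStream, mapped these to mm10 by STAR 2.7.0f, and deposited a raw, unnormalized count for each Ensembl gene. Annotation release, strand setting and handling of reads with several matches are not given in the sources used here. Symbols were found for 47224 of 47643 identifiers. Depth was 9515004 to 24605689 counts per library, and floors of 3 counts cover counting error only.

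Counts were tested in R 4.3.3 with edgeR 4.0.16 (quasi-likelihood test, TMM factors, two-sided, p adjusted by Benjamini-Hochberg over 11560 genes, those whose median CPM exceeded 1, threshold 0.05), separately on the 6 libraries of each comparison. The scripts were tested on simulated counts with 200 of 11560 genes changed. In IgE+BSA against Control, luteolin against IgE+BSA and luteolin against Control, 50%, 91.5% and 52.5% of these were recovered. Their median absolute log2 fold change in the fits was 1, 1.01 and 0.982. Ratios were compared by exact permutation tests. Alternatives were limma 3.58.1 with a mean-variance trend, the kind of test the study used, DESeq2 1.42.0, other scalings, no filter, all 9 libraries in 1 fit, a replicate block and each replicate left out. Control replicate 1 as the only Control library was added after seeing the data. CPM printed per library used TMM factors of all 9. The genes named were the 9, Tnf, Kit, Fcer1a, up to 3 called genes with the largest change per list and comparison, and the 3 genes most correlated with each. Traf2, S100a9, Mcpt8 and further marker genes were named after their values were seen. A listed gene is not reported here. The 9 genes and the lists were chosen with earlier results of these data known. Positions are from GENCODE vM21 (GRCm38), and promoter windows from RefSeq (GRCm38.p6).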

Additional observations from a re-analysis of the deposited data

How the results depend on the processing

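How many of the 11560 genes were called alike in every alternative was not counted. Of the 9 genes, Tnfaip3, Birc3 and Cflar stayed lower with luteolin than in IgE+BSA, past the threshold, in all 14 alternatives run, and Tnfaip3 stayed higher in IgE+BSA than in Control in all 15. The number of genes called in IgE+BSA against Control was 1, and 2 with DESeq2 (Tnip1 added), 7 with Control replicate 1 as the only Control library, and 1 to 4 with 1 replicate left out. For luteolin against IgE+BSA it was 6, and 3 with all 9 libraries in 1 fit, where the Control libraries enter the estimate of the spread and the calls over all 11560 genes went from 2527 lower and 2097 higher to 917 and 176, and 4 to 6 with 1 replicate left out. For luteolin against Control it was 1, and 2 with DESeq2 and 2 with all 9 libraries in 1 fit (Birc2 added in both), 3 with Control replicate 1 alone, and 0 to 5 with 1 replicate left out, with 0 without IgE+BSA+Luteolin replicate 1 or 2, where the adjusted p of Tnfaip3 was 0.0588 and 0.0667. Without either of those luteolin libraries, 0 of the 11560 genes were called higher against Control, and 5 and 2 lower. Leaving out 1 replicate moved the log2 Birc3 to Birc2 ratio of luteolin against Control between -0.06 and 0.084, and the log2 Cflar to Casp8 ratio of IgE+BSA against Control between -0.138 and 0.338. With Control replicate 1 as the only Control library, the log2 Cflar to Casp8 ratio was 0.805 in IgE+BSA and 0.012 with luteolin, each against Control, and without Control replicate 1 the latter was -0.93. With DESeq2 and with all 9 libraries in 1 fit, the 43 listed genes gave 1 lower and 3 higher, and 0 and 4, in IgE+BSA against Control, and 5 and 0, and 3 and 0, in luteolin against Control. Of the 11560 genes, DESeq2 called 628 lower and 599 higher in the former comparison and 1028 and 351 in the latter, and the fit of all 9 libraries called 431 and 674, and 892 and 359.

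Signs also turned for some of the genes, Xiap being called in both directions. For Xiap in IgE+BSA against Control the log2 fold change was 0.007 with limma, 0.002 with no filter, 0.005 with the replicate block, 0.675 with Control replicate 1 alone and -0.382 to 0.152 with 1 replicate left out, and in luteolin against Control 0.57 with Control replicate 1 alone and -0.466 to 0.028 with 1 replicate left out. Casp8 in IgE+BSA against Control was -0.019 with upper-quartile factors, -0.088 with library size alone and -0.027 with Control replicate 1 alone. Tnip1 in luteolin against Control was -0.014 and -0.049 with the same 2 scalings, and -0.027 to 0.039 with 1 replicate left out. Ripk1 in that comparison was -0.013 with library size alone and -0.03 to 0.127 with 1 replicate left out. Cflar was -0.04 (without Control replicate 1) to 0.359 in IgE+BSA against Control with 1 replicate left out, and 0.04 in luteolin against Control with Control replicate 1 alone. Cyld was -0.069 to 0.075 in luteolin against IgE+BSA with 1 replicate left out. The causes were not tested.

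Same-numbered libraries did not deviate together in every pair (correlations of -0.024, 0.175 and 0.283 in luteolin and IgE+BSA), so the replicate numbers were not taken as pairing. With the replicate block, the numbers of the 9 genes called were 1, 6 and 1, as without it. Over all genes the calls moved with the block from 118 lower and 260 higher to 17 and 127 in IgE+BSA against Control, from 2527 and 2097 to 2943 and 2639 in luteolin against IgE+BSA, and from 318 and 33 to 199 and 13 in luteolin against Control. Depth left all 9 genes with at least 398 counts in every library.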
